A study of Mus musculus with 16 samples.

Results

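Hearts that lacked MuRF1 and kept 1 functional MuRF2 allele (MuRF1 null MuRF2 het, labelled MuRF1 -/- // MuRF2 +/-) were compared with wild type hearts (MuRF1 +/+ // MuRF2 +/+). The comparison holds the 4 arrays of each genotype, 8 of the 16 arrays of the series, chosen by the genotype in the sample titles. The other groups were double null (MuRF1 -/- // MuRF2 -/-) and MuRF1 het MuRF2 null (MuRF1 +/- // MuRF2 -/-), with 4 arrays each. All hearts came from strain-matched mice of 12 weeks, 1 biological replicate per array, and each heart RNA, in the red dye Cy5, was hybridised against the same reference in the green dye Cy3, pooled RNA of whole C57BL/6 neonates (postnatal day 1). How the alleles were made, and the strain, sex and litters of the hearts, are not stated in those labels.

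MuRF1 (gene Trim63), MuRF2 (Trim55) and MuRF3 (Trim54) are muscle ring finger proteins. They sit at the sarcomere, form dimers with each other, and MuRF1 is a ubiquitin ligase that marks muscle proteins for breakdown by the proteasome. MuRF1 is best known for its rise in wasting muscle, and in the heart it has been linked to the restraint of growth. With 1 MuRF2 allele left, the comparison shows what differed in hearts without MuRF1 in which MuRF2 was reduced but not removed, next to hearts in which both were gone.

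Values are log2 ratios, heart over reference, so a difference of 1 between groups is a 2-fold change. Errors of group means are SDs over 4 arrays, and those of differences are limma standard errors, fitted over all 16 arrays. "Rose", "fell" and "changed" are used for genes with an adjusted p under 0.05 (limma, two-sided, Benjamini-Hochberg over 12331 genes). The heart markers Myh6, Actc1, Tnnt2, Tnni3, Myl2 and Ryr2 were above the reference on all 8 arrays, by 2.25 or more but for Ryr2, which lay between 0.14 and 1.02.

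The arrays differed in how much they measured. Cy5 signal was well above background for 15171 to 16664 probes on the wild type arrays and for 6402, 15067, 11504 and 13086 probes on MuRF1 null MuRF2 het arrays 1 to 4, so that no array of this group reached the lowest wild type array. The Cy3 reference was measured for 22007 to 23925 probes on the 8 arrays. Across all genes, MuRF1 null MuRF2 het 1 correlated with the wild type arrays at 0.767 to 0.832, MuRF1 null MuRF2 het 2 at 0.960 to 0.976, and wild type arrays with each other at 0.965 to 0.988. Per the file headers all 4 MuRF1 null MuRF2 het arrays were on slide 2 and the wild type arrays on slides 1 and 3, which means that genotype and slide cannot be told apart. The double null arrays shared slides 1 and 3 with wild type. All MuRF1 het MuRF2 null arrays were on slide 4, so genotype and slide cannot be told apart for that group either. The part of array brightness in the results was not tested beyond a fit with brightness as a covariate, in which 46 genes rose and 48 fell and 40 of the 127 genes described below passed.

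**Figure D1:**
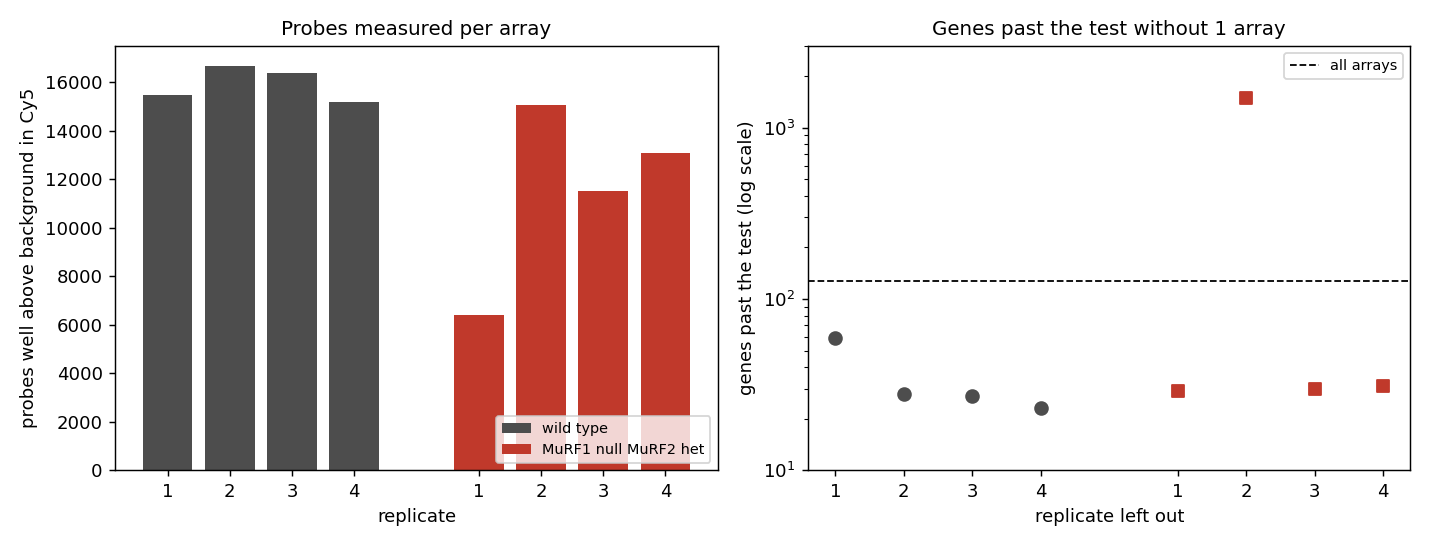
Left, the number of probes with Cy5 signal well above background on each of the 4 wild type and 4 MuRF1 null MuRF2 het arrays. Right, on a log axis, the number of genes past the test when the array on the x axis was left out, with the 127 genes of the full fit as a dashed line; only the fit without MuRF1 null MuRF2 het 2 lies above it, at 1498.

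In MuRF1 null MuRF2 het hearts 127 of 12331 genes changed, 1.03% of those tested: 39 rose (0.316%) and 88 fell (0.714%). With median centring of each array 13 rose and 7361 fell, and in the Cy5 channel alone 14 rose and 54 fell. The changes were small. Their median size was 0.58, and 7 genes passed 2-fold, 3 of them rises and 4 falls. The 4 arrays of each group did not overlap for 123 of the 127, against 6.35% of all genes with the 4 MuRF1 null MuRF2 het arrays above and 6.29% with them below the wild type arrays. The median difference over all genes was 0.003, and 2845 genes had an unadjusted p under 0.05. The gene lists counted below were chosen with earlier results of these data known, so their counts are descriptions only.

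The count rested on single arrays. Without MuRF1 null MuRF2 het 2, whose values lay nearest to wild type, 1498 genes passed, including all 127. Of the 127, 28 passed without MuRF1 null MuRF2 het 1, 28 without het 3 and 28 without het 4. Without wild type 1, 2, 3 or 4 the number was 51, 27, 27 and 23. In each of the 8 fits with 1 array left out 19 genes passed, 6 rises and 13 falls. Leaving aside 4 clone names, accessions and predicted genes, they included the falls Trim63, Kcne1, Manba, Clic4, Stard8, Epb41l4a, Azin1, Zfp369 and Hemk1 and the rises Hyi, Hebp1, Cyb5a, Fuca1 and Gsta1. Apart from TC1444249, one of those 4, every other changed gene named below lost its call without at least 1 array.

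The targeted gene was examined first. Trim63 was at -0.34, -0.85, -0.75 and -0.60 on MuRF1 null MuRF2 het arrays 1 to 4 and at 2.51, 2.65, 2.71 and 2.67 on wild type arrays 1 to 4. The groups were far apart, and the difference was -3.27 ± 0.14 (9.65-fold, adjusted p = 1.21e-09). Its signal was well above background on 2 of the 4 MuRF1 null MuRF2 het arrays. The first 30 bases of the 60-base probe, printed so that the measured stretch can be found, were as follows.
Trim63: ccaaaacgtcacaggacacttttctacgtt
The other Trim63 probe was dim, with no MuRF1 null MuRF2 het array and 3 wild type arrays above background, and gave -0.23 ± 0.09. In double null hearts the brighter probe was at -0.72 ± 0.27 (SD, n = 4), and the 2 groups without MuRF1 differed by -0.09 ± 0.14 (adjusted p = 0.943).

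Trim55, the gene with 1 allele left, was not lower. It was at -0.92, -1.61, -0.44 and -1.14 on MuRF1 null MuRF2 het arrays 1 to 4 and at -1.57, -1.90, -1.62 and -1.81 on the wild type arrays. MuRF1 null MuRF2 het 2 lay within the wild type range, and the difference of 0.70 ± 0.25 did not pass (adjusted p = 0.133). Nor was Trim55 lower in the groups labelled as lacking both MuRF2 alleles. It differed from wild type by 0.37 ± 0.25 in double null and by 0.44 ± 0.25 in MuRF1 het MuRF2 null hearts. The labels do not say which part of Trim55 was removed. The probe therefore does not register the MuRF2 genotype, and its values do not tell how much intact MuRF2 RNA was left. Trim54 was at 2.65, 2.68, 2.41 and 2.65 against 2.36, 2.26, 2.01 and 2.13 on the wild type arrays. These arrays did not overlap, but the difference of 0.41 ± 0.11 did not pass (adjusted p = 0.0833). With each array centred on its median both differences were below 0, at -0.43 for Trim55 and -0.94 for Trim54, in a setting that moved the median of all genes by -0.51.

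**Figure D2:**
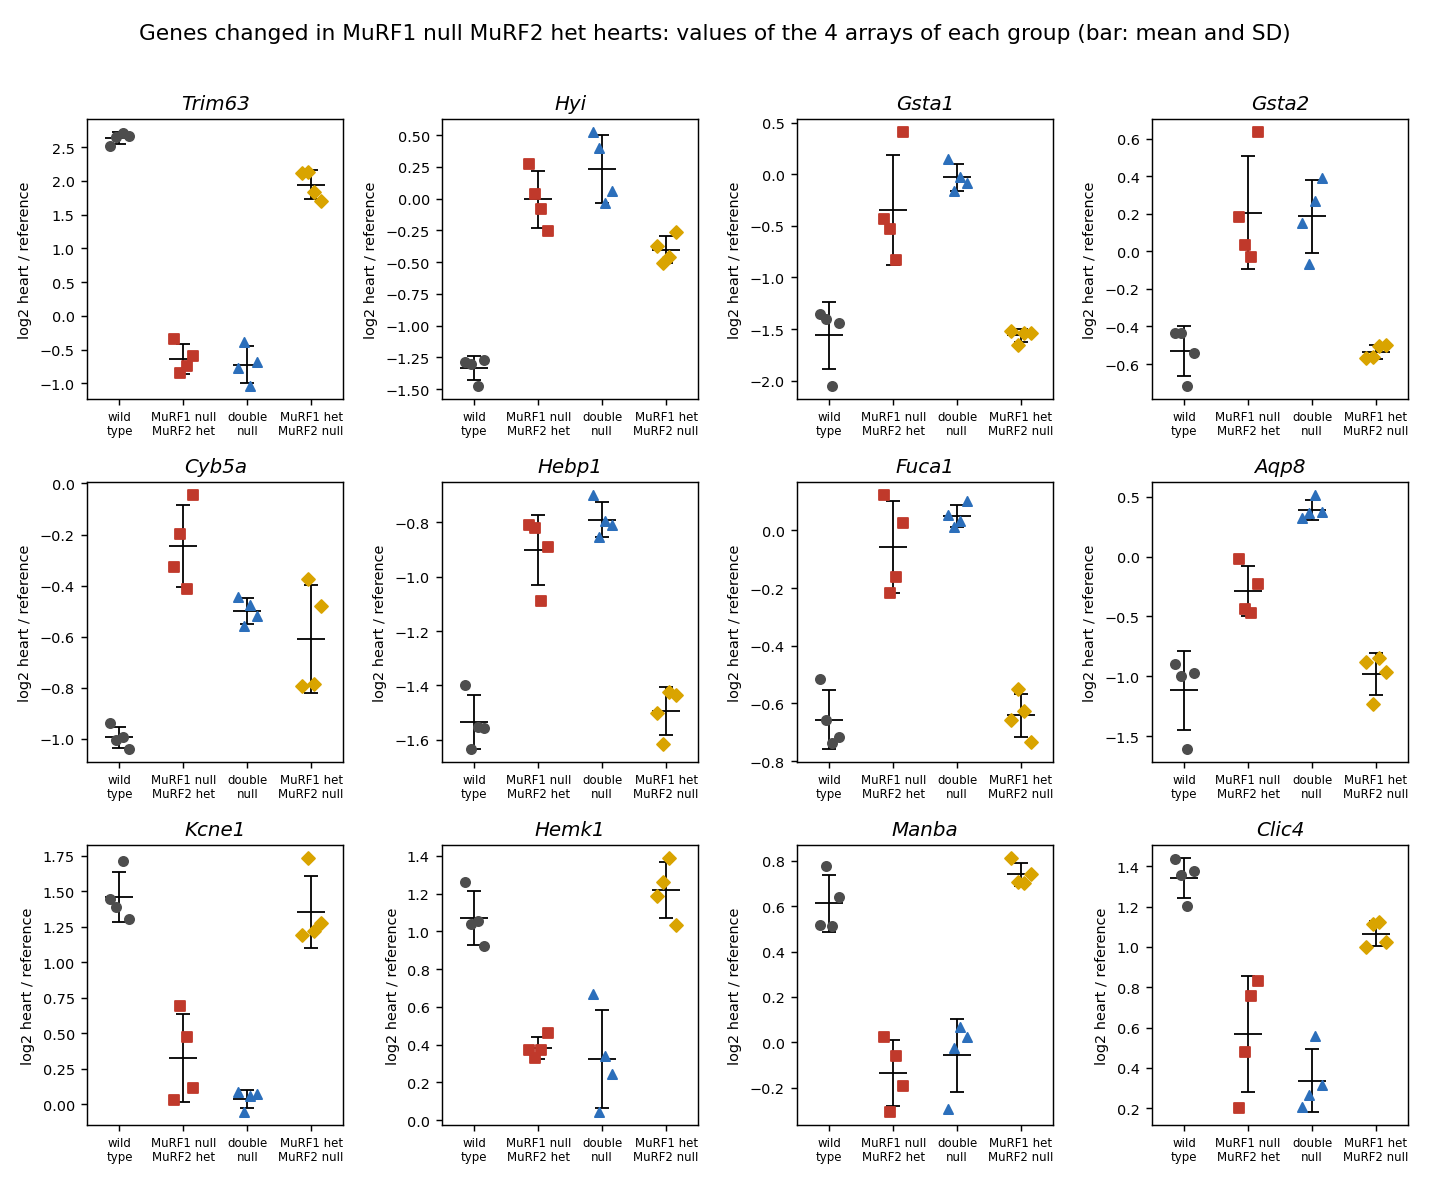
Log2 ratio of heart to reference (y axis, its range set for each gene) on the 4 arrays of each of the 4 groups, for 12 genes that passed in MuRF1 null MuRF2 het against wild type hearts; bars are means and SDs. In each panel the 4 MuRF1 null MuRF2 het arrays lie apart from the 4 wild type arrays.

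The rises included genes of detoxification. Glutathione S-transferases of the alpha class join glutathione to reactive compounds and lipid peroxides. Gsta1 was at -0.43, -0.53, -0.83 and 0.41 on MuRF1 null MuRF2 het arrays 1 to 4 and at -1.35, -1.40, -2.05 and -1.45 on the wild type arrays, so it was higher on every array of the group, most on array 4. The difference was 1.22 ± 0.20 (2.32-fold, adjusted p = 0.0145). Gsta2 was at 0.18, 0.04, -0.03 and 0.64 against -0.43, -0.43, -0.72 and -0.54. It too was highest on array 4 (0.74 ± 0.13, 1.67-fold, adjusted p = 0.017), and it was well above background on 3 arrays of each group. A probe with no gene name in the files, A_51_P305138, was at -0.04, -0.08, -0.16 and 0.58 against -0.66, -0.45, -0.94 and -0.59 (0.74 ± 0.16, adjusted p = 0.0384). By the coordinates in the files, whose build is not given, it lies 4.76 kb from the Gsta2 probe on chromosome 9; it was chosen after its values were seen. In MuRF1 het MuRF2 null hearts, against the same wild type arrays, Gsta1 differed by 0.00 ± 0.20 and Gsta2 by 0.00 ± 0.13, and in double null hearts by 1.53 ± 0.20 and 0.72 ± 0.13.

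The probe sequences show how far these rows are separate measurements. Capitals mark the 28 bases where the end of the Gsta1 probe and the start of the Gsta2 probe cover the same stretch, 27 of them identical, and the unnamed probe is given whole.
Gsta1: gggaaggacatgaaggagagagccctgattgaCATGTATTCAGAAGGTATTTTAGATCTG
Gsta2: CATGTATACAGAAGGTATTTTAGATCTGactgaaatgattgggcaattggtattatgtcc
A_51_P305138: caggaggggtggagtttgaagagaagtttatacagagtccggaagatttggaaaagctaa
Each has 1 reading frame without a stop codon. With near-identical genes, RNA of one can bind the probe of another, so the rows may share signal and which gene of the family rose is uncertain.

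The promoters of Gsta1 and Gsta2 were set side by side because their rows moved together, though these rows may share signal. The 250 bases before each start, from RefSeq on GRCm38.p6, are at chr9:78230419-78230668 (plus strand) for Gsta1 and chr9:78347146-78347395 (minus strand) for Gsta2. Capitals mark runs of at least 10 bases that are identical in their alignment.
Gsta1: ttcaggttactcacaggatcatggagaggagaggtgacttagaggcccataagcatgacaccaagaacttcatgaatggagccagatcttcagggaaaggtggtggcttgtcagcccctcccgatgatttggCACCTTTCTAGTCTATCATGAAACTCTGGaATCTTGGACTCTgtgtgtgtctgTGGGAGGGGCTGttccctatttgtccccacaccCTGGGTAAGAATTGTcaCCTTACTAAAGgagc
Gsta2: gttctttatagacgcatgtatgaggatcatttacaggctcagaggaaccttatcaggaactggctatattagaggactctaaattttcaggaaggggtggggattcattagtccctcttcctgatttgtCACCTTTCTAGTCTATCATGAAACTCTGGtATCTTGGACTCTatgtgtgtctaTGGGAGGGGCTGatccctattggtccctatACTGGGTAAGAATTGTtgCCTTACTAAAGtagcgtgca
Of 239 aligned bases 184 were identical (77.0%), and the longest identical run was 29 bases. For Gsta1 and Gsta3 the same alignment gave 64.3%, and Gsta3 did not pass. The core of the antioxidant response element was searched for as TGACNNNGC on either strand. The search took the whole promoter sequence held for each gene, which was not cut to the 250 bases printed. The core was found in neither gene, and in 14.9% of the 8892 tested genes with a promoter sequence. Among 27 risen genes with such a sequence 3 held it, Eef1b2, Rimkla and Skap2, which were chosen after their values were seen. A match of letters describes the searched sequence only, and sites beyond it were not searched.

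Cyb5a, the electron carrier cytochrome b5 of the endoplasmic reticulum, was at -0.33, -0.20, -0.41 and -0.05 against -0.94, -1.01, -0.99 and -1.04 on the wild type arrays. The 4 arrays of the group lay well above the narrow wild type range (0.75 ± 0.10, 1.68-fold, adjusted p = 0.00229). Of 51 measured genes of the glutathione and antioxidant list Gsta1, Gsta2 and Cyb5a rose, against 0.316% of all genes tested. The Gsta1 and Gsta2 rows may share signal. None of the list fell and 48 did not pass, with a list median of 0.12. Gsta3 was at 0.69 ± 0.27 (adjusted p = 0.157) and the lipid peroxide reductase gene Gpx4 at 0.82 ± 0.26 (adjusted p = 0.114).

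Hyi, a putative hydroxypyruvate isomerase, had the largest named rise. It was at 0.28, 0.04, -0.08 and -0.26 on MuRF1 null MuRF2 het arrays 1 to 4 and at -1.29, -1.30, -1.48 and -1.27 on the wild type arrays, and the groups were over 1 unit apart at their nearest. The difference was 1.33 ± 0.13 (2.51-fold, adjusted p = 7e-05). The third rise over 2-fold was of a transcript with no gene name, TC1444249 (1.17 ± 0.11, adjusted p = 4.83e-05), chosen after its values were seen. In MuRF1 het MuRF2 null hearts Hyi was higher than in wild type by 0.93 ± 0.13 (adjusted p = 0.0038) and in double null hearts by 1.57 ± 0.13, so that Hyi was raised in all 3 groups with mutant alleles. Its probe begins as follows.
Hyi: ctggggcggtgtgctagtgtccggagtccc
Pts, an enzyme of tetrahydrobiopterin synthesis, was at -0.06, 0.27, 0.47 and 0.59 against -0.46, -0.41, -0.34 and -0.43 (0.73 ± 0.16, adjusted p = 0.043), and a second probe gave 0.66 ± 0.20. Hebp1, a heme-binding protein, was at -0.81, -0.82, -1.09 and -0.89 against -1.40, -1.63, -1.55 and -1.56 (0.63 ± 0.08, adjusted p = 0.00174). It passed in each fit with 1 array left out. Of 17 genes of the small metabolite list Hyi and Pts rose, against 0.316% of all genes tested, and none fell. As that list was chosen with earlier results of these data known, its count is only a description.

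Lysosomal enzymes went both ways. Fuca1, which removes fucose from glycoproteins, was at 0.12, -0.22, -0.16 and 0.02 against -0.51, -0.66, -0.74 and -0.72 on the wild type arrays (0.60 ± 0.08, 1.51-fold, adjusted p = 0.00342), and a second probe gave 0.50 ± 0.10. Manba, which removes mannose, was at 0.02, -0.31, -0.06 and -0.19 against 0.52, 0.78, 0.51 and 0.64. It was lower on all 4 arrays (-0.75 ± 0.10, adjusted p = 0.00174), with -0.42 ± 0.08 on a dimmer second probe. Ppt1, a palmitoyl thioesterase, was at 0.77, 1.14, 1.43 and 1.30 against 0.34, 0.44, 0.53 and 0.32 (0.75 ± 0.13, adjusted p = 0.0166), but a second probe gave -0.03 ± 0.17. Of 37 measured lysosomal genes 2 rose, 1 fell and 34 did not pass, and the list median was -0.06. Of all genes tested 0.316% rose and 0.714% fell.

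A few rises were of genes for the cytoskeleton and protein care, while most measured actin regulators and chaperones did not pass. Twf2, which caps actin filaments, was at 2.56, 2.32, 2.14 and 2.09 against 1.69, 1.75, 1.23 and 1.56 (0.72 ± 0.13, 1.65-fold, adjusted p = 0.0229), and its second probe gave 0.68 ± 0.11. Cfl2, the muscle form of the actin severing protein cofilin, rose by 0.44 ± 0.09 (adjusted p = 0.0384). These were the 2 rises among 34 actin regulators, none of which fell. Of all genes tested 0.316% rose. Myl12b, a regulatory light chain of non-muscle myosin, rose by 0.67 ± 0.14 on its brighter probe and differed by 0.11 ± 0.13 on the other, both well above background on all 8 arrays.

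Cryab, the small heat shock protein alpha B crystallin of the sarcomere, was at 3.43, 3.56, 3.45 and 3.79 against 3.098, 3.13, 2.87 and 2.99 (0.53 ± 0.09, adjusted p = 0.0158). Its dimmer probe, also above background on all 8 arrays, gave -0.40 ± 0.17 (adjusted p = 0.179 over all probes), so the 2 probes had opposite signs. Hspa5, the chaperone BiP of the endoplasmic reticulum, was at -0.19, -0.22, -0.23 and -0.26 against 0.19, 0.45, 0.09 and 0.20. This even fall of 0.45 ± 0.09 (adjusted p = 0.0304) was the only one among 27 heat shock and chaperone genes, of which Cryab was the only rise. Sqstm1, the autophagy receptor p62, rose by 0.56 ± 0.12 (1.47-fold, adjusted p = 0.0415), the only change among 27 genes of the autophagy and FoxO list.

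The other large rises had various roles. Aqp8, a water channel, was at -0.02, -0.44, -0.47 and -0.23 against -0.90, -0.995, -1.61 and -0.97 (0.83 ± 0.14, 1.78-fold, adjusted p = 0.017). Wif1, a secreted inhibitor of Wnt ligands, was at -0.28, -0.87, -0.70 and -0.63 against -1.13, -1.71, -1.76 and -1.39 (0.88 ± 0.16, adjusted p = 0.0229). It was the only rise among 24 Wnt genes and among 12 valve, epicardial and mesothelial markers, a list that counts it too. Hmgn2, a nucleosome-binding protein, rose by 0.77 ± 0.14, Eif3h, a subunit of a translation initiation factor, by 0.69 ± 0.14, the neurite protein gene Nrn1 by 0.66 ± 0.13 and Nipsnap3b by 0.62 ± 0.13, with adjusted p from 0.0253 to 0.0342.

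With median centring of each array, Hmgn2, Ppt1, Cyb5a, Pts, Twf2, Eif3h, Myl12b, Hebp1, Nipsnap3b, Fuca1, Cfl2, Sqstm1 and Cryab lay below 0, while Hyi, Gsta1, Gsta2, Wif1, Aqp8 and Nrn1 stayed above it. Relative to the shift of -0.51 that this setting gave all genes, 29 of the 39 rises were still above and 73 of the 88 falls still below.

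The falls included genes of cardiac ion transport. Kcne1, the accessory subunit of the slow potassium channel that ends the action potential, was at 0.03, 0.69, 0.47 and 0.12 on MuRF1 null MuRF2 het arrays 1 to 4 and at 1.44, 1.39, 1.71 and 1.30 on the wild type arrays. The groups were well apart (-1.13 ± 0.15, 2.19-fold, adjusted p = 0.00174), though only 2 arrays of the MuRF1 null MuRF2 het group measured it above background. Clic4, an intracellular chloride channel protein, was at 0.20, 0.48, 0.76 and 0.83 against 1.43, 1.35, 1.20 and 1.38 (-0.78 ± 0.12, adjusted p = 0.0103). Both lay apart from wild type on all 4 arrays. The probe of Kcne1 begins as follows.
Kcne1: acactctacaggtgacaagcggatctttct

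Kcne1 and Clic4 were among the 3 falls of 41 measured calcium handling and ion channel genes, none of which rose. The other 38 did not pass, and of all genes tested 0.714% fell. Of the 41, 33 lay below 0, against 6094 of 12331 genes tested. The list median was -0.35, against 0.003 for all genes tested. The array medians of this list were -0.88, -0.04, -0.42 and -0.19 on MuRF1 null MuRF2 het 1 to 4, the order of how few probes each array measured, and the list median of -0.35 became 0.01 with brightness as a covariate. Kcnq1, the pore subunit that Kcne1 joins, was at -0.88 ± 0.22 (adjusted p = 0.0575), Kcna5 at -0.95 ± 0.24 (adjusted p = 0.0616) and Kcnj12 at -0.86 ± 0.22 (adjusted p = 0.0649).

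Several vessel genes fell. Flt1, a receptor for vascular endothelial growth factor, was at 0.46, 1.54, 0.76 and 0.85 against 1.55, 1.89, 1.86 and 1.76, and MuRF1 null MuRF2 het 2 reached almost to the lowest wild type array. The difference was -0.86 ± 0.19 (1.81-fold, adjusted p = 0.0416), and its 2 dimmer probes gave -0.54 ± 0.19 and -0.80 ± 0.23. Ptprb, the vascular endothelial phosphatase, was at 0.25, 1.28, 0.41 and 0.54 against 1.53, 1.69, 1.77 and 1.64 (-1.04 ± 0.19, 2.05-fold, adjusted p = 0.0199). The Notch receptor of endothelium, Notch4, was at 0.05, 0.64, 0.09 and 0.19 against 0.67, 0.84, 1.32 and 0.85 (-0.68 ± 0.14, adjusted p = 0.0388). MuRF1 null MuRF2 het 2 was again the array nearest to wild type.

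Nrp1, a co-receptor for vascular growth factor and semaphorins, fell by 0.57 ± 0.12 (adjusted p = 0.0393), and Sema3g, a secreted semaphorin, by 0.78 ± 0.18 (adjusted p = 0.0463). Heyl, a target of Notch, was at -0.18, -0.04, -0.17 and -0.24 against 0.15, 0.20, 0.26 and 0.21 (-0.37 ± 0.07, adjusted p = 0.0235), but 0.00 ± 0.08 on a second probe that 1 MuRF1 null MuRF2 het array measured. Of 24 endothelial markers 2 fell, Flt1 and Ptprb, against 0.714% of all genes tested, and none rose. Below 0 lay 21 of the 24, against 6094 of 12331 genes tested, and the median was -0.40. The array medians of the endothelial list were -0.54, -0.10, -0.45 and -0.37, each below all 4 wild type arrays (-0.05 to 0.03). Their order was that of how few probes each MuRF1 null MuRF2 het array measured. With brightness as a covariate the list median was -0.25, and Flt1, Ptprb, Notch4, Nrp1 and Sema3g did not pass, while Heyl did. All of these genes, Heyl included, lost their call in a fit of only the 8 arrays. They also lost it with the wild type arrays of slide 1 or slide 3 alone. Over its settings the endothelial median was below 0 throughout, from -1.15 to -0.25. The markers Eng, Cdh5 and Sox18 were at -0.45 ± 0.10, -0.64 ± 0.16 and -0.51 ± 0.12 (adjusted p = 0.0505, 0.0575 and 0.0556). Of 31 genes of vascular growth factor, angiopoietin and Notch signalling 4 fell, against 0.714% of all genes tested, and none rose. The 4 were Flt1, which both lists hold, Notch4, Nrp1 and Heyl. In this signalling list 12 lay above 0 and the median was -0.10. In whole hearts, fewer endothelial cells and less of these RNAs per cell cannot be told apart.

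**Figure D3:**
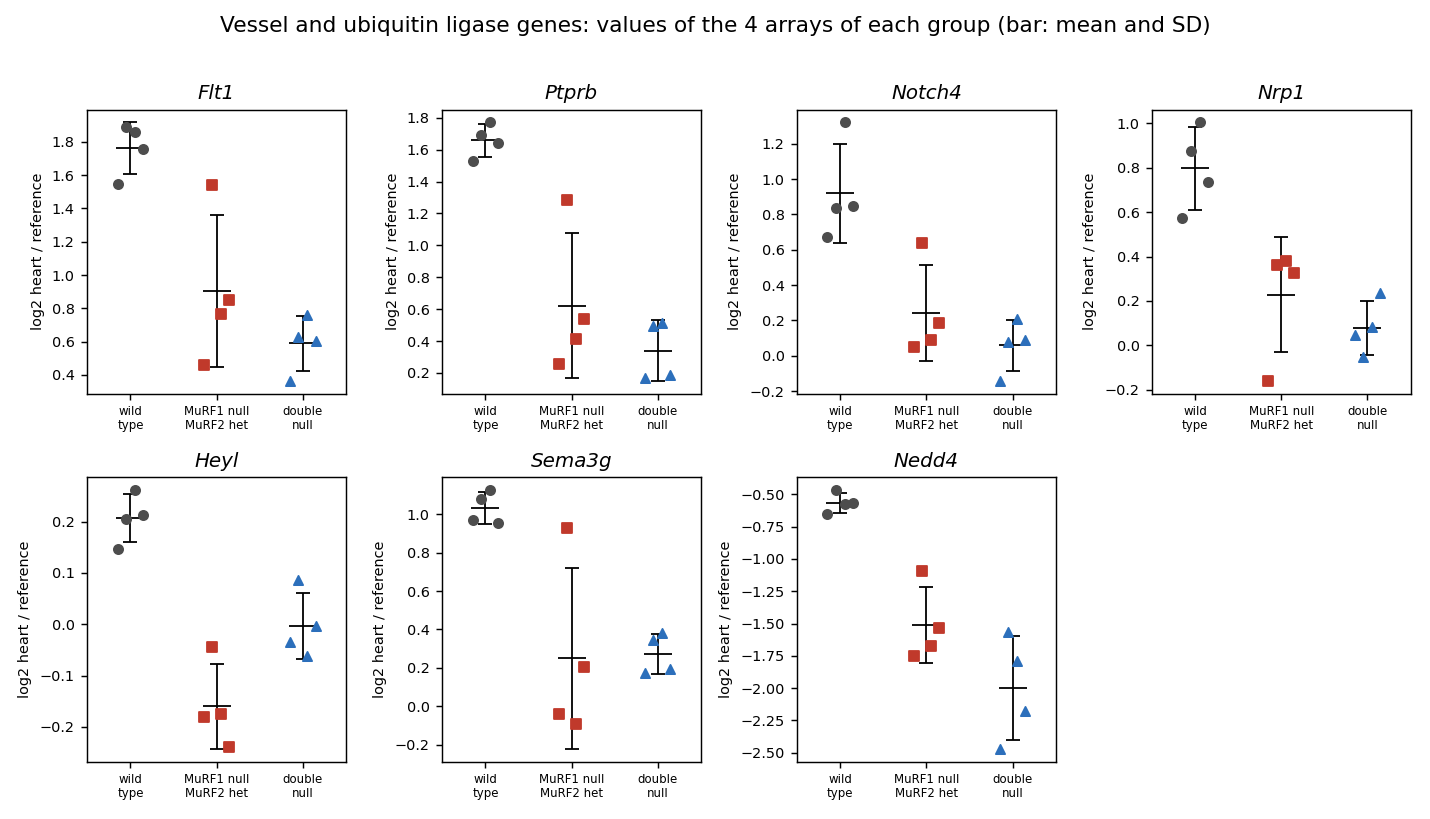
Log2 ratio of heart to reference on the 4 arrays of wild type, MuRF1 null MuRF2 het and double null hearts, for 6 vessel genes and the ubiquitin ligase gene Nedd4; bars are means and SDs, and y ranges differ. For Flt1, Ptprb, Notch4 and Sema3g the MuRF1 null MuRF2 het array nearest to the wild type arrays is array 2.

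Ppara, the nuclear receptor that drives fatty acid oxidation genes, was at 0.28, 0.51, 0.22 and 0.29 against 0.64, 0.87, 0.64 and 0.69 (-0.39 ± 0.08, adjusted p = 0.0384). None of the other 37 genes of its list passed, and the list median was 0.04. Lrpprc, which stabilises mitochondrial messenger RNAs, was at 0.13, 0.91, 0.56 and 0.86 against 1.13, 1.55, 1.57 and 1.46 (-0.81 ± 0.17, adjusted p = 0.0375).

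The falls included 2 genes linked to magnesium transport, Nipal3 and Slc41a1, and transport itself was not measured. Nipal3, which belongs to a family of magnesium transporters, was at 0.16, 0.94, 0.48 and 0.67 against 1.57, 1.90, 1.58 and 1.56 (-1.09 ± 0.19, 2.13-fold, adjusted p = 0.0158), with -0.77 ± 0.17 on a second probe. Slc41a1 fell by 0.44 ± 0.09 (adjusted p = 0.0342). With the rise of Aqp8, 3 of 16 water and solute channel genes changed, against 1.03% of all genes tested. That list was chosen with earlier results of these data known.

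Nedd4, a ubiquitin ligase of receptors and channels, was at -1.75, -1.09, -1.67 and -1.53 against -0.65, -0.47, -0.58 and -0.57 (-0.95 ± 0.17, 1.93-fold, adjusted p = 0.0229). A second Nedd4 probe, well above background on all 8 arrays, gave 0.01 ± 0.16, so the fall was on 1 of 2 probes. Apart from Trim63 it was the only change among 26 muscle ring finger and ubiquitin ligase genes. Cish, an inhibitor of cytokine signalling through STAT5, was at 1.37, 1.72, 1.99 and 1.22 against 2.56, 2.56, 2.05 and 2.40 (-0.82 ± 0.19, adjusted p = 0.0497).

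St3gal3 and B4galt1, which add sialic acid and galactose to glycans, fell by 0.81 ± 0.17 and 0.57 ± 0.12 (adjusted p = 0.0342 for both). They were 2 of 25 genes of their list, against falls in 0.714% of all genes tested. A second St3gal3 probe, above background on 1 array of each group, gave -0.10 ± 0.09. The histidine tRNA ligase gene Hars was at -0.80, -1.37, -1.14 and -1.13 against -0.33, -0.21, -0.34 and -0.40 (-0.79 ± 0.16, adjusted p = 0.03). Here MuRF1 null MuRF2 het 2 was the array farthest from wild type and array 1 the nearest. Inpp4b, a phosphoinositide phosphatase, fell by 0.79 ± 0.17 (adjusted p = 0.0415), Klhdc8a by 0.89 ± 0.20 (adjusted p = 0.0419) and Abhd18 by 0.78 ± 0.14 (adjusted p = 0.017).

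The remaining falls that passed in every fit with 1 array left out were modest. Hemk1, a methyltransferase of translation release factors, was at 0.37, 0.33, 0.37 and 0.46 against 1.26, 1.04, 1.05 and 0.92 (-0.69 ± 0.12, adjusted p = 0.0153). Azin1, an inhibitor of the antizyme that limits polyamine synthesis, was at -0.13, -0.22, -0.31 and -0.27 against 0.32, 0.31, 0.44 and 0.29 (-0.57 ± 0.09, adjusted p = 0.0122), but 0.01 ± 0.08 on a dimmer probe. Both genes varied little among the arrays of each group. Stard8, a GTPase activating protein, fell by 0.62 ± 0.10, Epb41l4a by 0.54 ± 0.09 and the zinc finger gene Zfp369 by 0.52 ± 0.09, the last above background on 1 MuRF1 null MuRF2 het array. Their adjusted p were 0.0122, 0.0122 and 0.0129.

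For 40 of the 127 genes a further probe passed the filter on dim signal. Of these 47 further probes 39 had the sign of the probe used. Only 9 were well above background on all 8 arrays, of which 7 had the same sign. For 5 of the falls no MuRF1 null MuRF2 het array was above background, so that only a bound can be given: Igfals, Prr30, Helt, Col24a1 and Ddx23 were at least 1.18-fold, 1.17-fold, 1.16-fold, 1.29-fold and 1.20-fold lower. Rimkla, a risen gene, was above background on no wild type array and was 1.33-fold higher by measured signal. A bound sets the mean of the bright group against the dim arrays. Each dim array enters with the higher of its measured signal and its lowest signal well above background. For Rimkla the measured signal was the higher, so that its value is no bound against that lowest signal. These 6 genes were chosen after their values were seen.

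Genes on chromosome 4, which carries Trim63, made up 20 of the 127, or 2.85% of the 702 tested there against 1.03% of all genes. Among the 200 tested genes nearest to Trim63 in gene order, 100 on each side, 8 changed (4.00%), 4 of them rises (Hmgn2, Fuca1 and Tmem51 among them) and 4 falls (Clic4, Nipal3, Pnrc2 and Eya3). Hyi, Ppt1, St3gal3, Heyl, B4galt1 and Nipsnap3b also lie on this chromosome. Tmem51, Pnrc2 and Eya3 were chosen after their values were seen.

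Markers of fetal and stressed myocardium did not pass in MuRF1 null MuRF2 het hearts. None of the 24 fetal and hypertrophic genes measured rose or fell, and the median was 0.23. Nppa, the atrial natriuretic peptide, was at 2.66, 3.06, 2.74 and 2.75 against 2.43, 2.41, 2.08 and 2.30 on the wild type arrays, a difference of 0.49 ± 0.36 (95% interval -0.28 to 1.26, adjusted p = 0.416) with arrays that did not overlap. Nppb, the B-type peptide, was at 2.63, 4.24, 3.75 and 3.62 against 3.90, 4.30, 2.93 and 3.66 (-0.14 ± 0.33, adjusted p = 0.823). These groups overlapped. Myh7, the slow myosin heavy chain, was uneven, at -0.93, 0.55, -2.004 and 0.13 against -1.75, -1.95, -2.48 and -2.09, so 3 arrays were above the wild type range and array 3 was within it (1.51 ± 0.72, adjusted p = 0.223).

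Myh6, the adult myosin heavy chain, was at 2.28, 4.02, 3.49 and 3.55 against 3.88, 4.01, 4.15 and 3.83 (-0.63 ± 0.31, adjusted p = 0.226), and the difference was -0.28 without MuRF1 null MuRF2 het 1. Skeletal actin, Acta1, was at -2.73, -3.08, -2.77 and -2.76 against -3.46, -3.72, -3.40 and -3.44 (0.67 ± 0.28, adjusted p = 0.173). Its arrays did not overlap. The stretch-responsive Ankrd1 differed by 0.47 ± 0.41, the calcium pump gene Atp2a2 by 0.07 ± 0.14 and the growth factor gene Ccn2 by 0.21 ± 0.39, with adjusted p from 0.487 to 0.771. With median centring Atp2a2 was at -1.53 (adjusted p = 0.0366) and Myh6 at -2.24 (adjusted p = 0.0289). In 1 of the 17 settings other than leaving out 1 array Acta1 and Ankrd1 each passed as a rise (limma adjusted p = 0.0198 and 0.0225). A standard error of this fit is pooled over 4 groups, and for Nppa, Acta1 and Myh7 the double null arrays spread widely, which enters it.

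Double null and MuRF1 null MuRF2 het hearts were also compared directly, and 43 of 12331 genes (0.349%) passed, among them 5 of the 24 fetal and hypertrophic genes. These 2 groups were on different slides, so genotype and slide cannot be told apart in this comparison. Nppa was higher in double null hearts by 2.41 ± 0.36 (5.31-fold, adjusted p = 0.0114), on arrays at 4.63, 6.62, 4.40 and 5.18; it was saturated on 1 double null array, which limits each Nppa value for that group. Nppb was higher by 1.88 ± 0.33 (adjusted p = 0.026), Acta1 by 1.59 ± 0.28 (adjusted p = 0.0252) and Ccn2 by 2.18 ± 0.39 (adjusted p = 0.026). Atp2a2 was lower in double null hearts (-0.73 ± 0.14, adjusted p = 0.0381). The arrays of both groups did not overlap for any of these 5 genes, which were picked because they passed. The share of all genes without overlap was not counted for this comparison. Myh7 (2.93 ± 0.72, adjusted p = 0.102), Myh6 (-0.88 ± 0.31, adjusted p = 0.301) and Ankrd1 (1.02 ± 0.41, adjusted p = 0.397) did not pass. Double null 1 was at -0.38 for Myh7 and the other double null arrays at 2.81, 3.82 and 3.20.

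Against wild type, 2737 genes (22.2%) passed in double null hearts and 241 (1.95%) in MuRF1 het MuRF2 null hearts. Both share the wild type arrays with the present comparison, so values are only set side by side. Nppa was higher than wild type by 2.90 ± 0.36 in double null (1 array saturated), by 0.49 ± 0.36 in MuRF1 null MuRF2 het and by 0.88 ± 0.36 in MuRF1 het MuRF2 null hearts; for Acta1 the values were 2.26, 0.67 and 0.91, and for Ccn2 2.38, 0.21 and -0.24. For Kcne1 they were -1.42, -1.13 and -0.11, for Fuca1 0.71, 0.60 and 0.01, and for Manba -0.67, -0.75 and 0.13. Of the 127 genes, 1, Cish, differed between double null and MuRF1 null MuRF2 het hearts (-0.97 ± 0.19, adjusted p = 0.0381). Aqp8 was at 0.68 ± 0.14 in the same comparison (adjusted p = 0.0592).

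**Figure D4:**
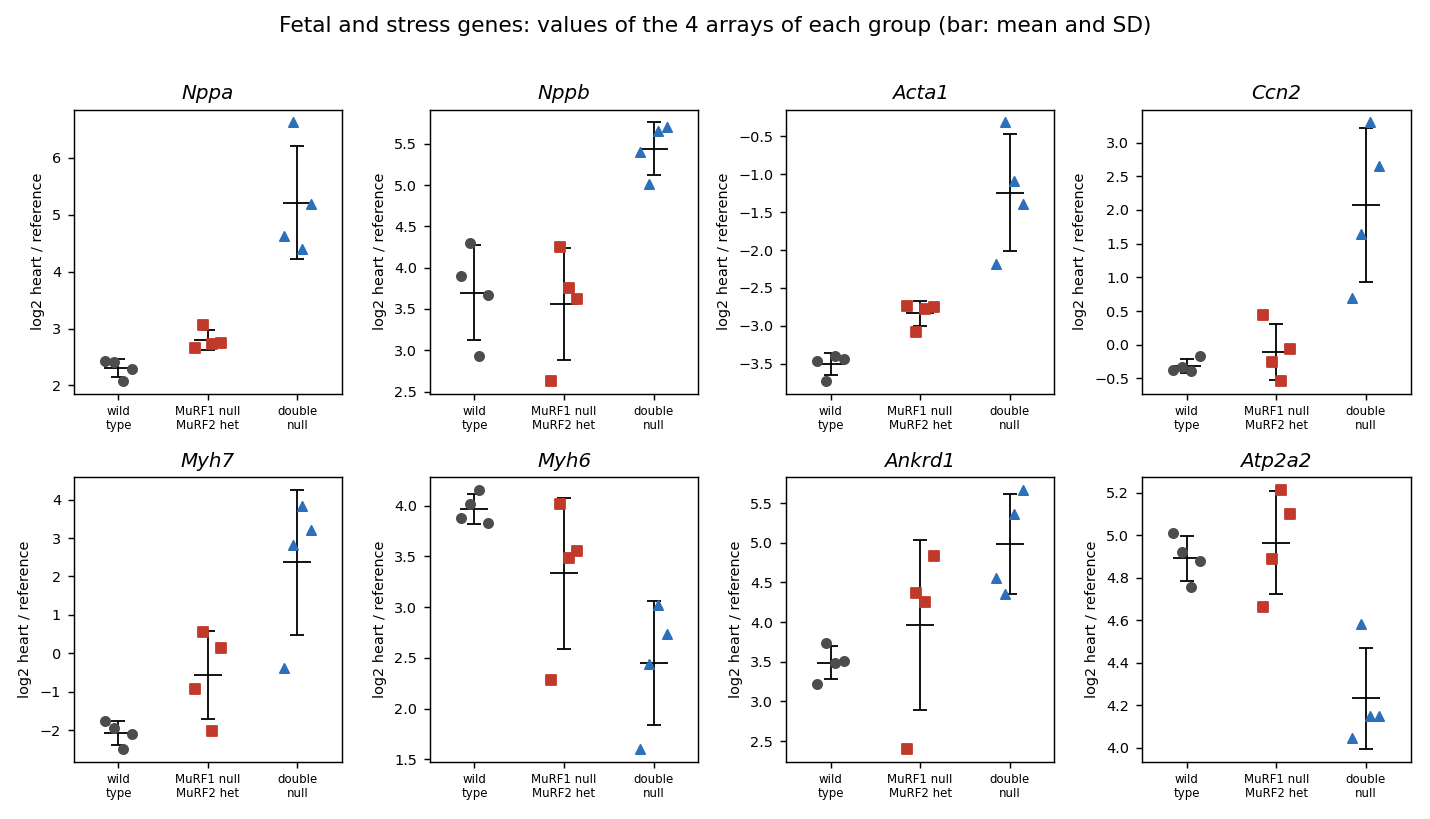
Log2 ratio of heart to reference on the 4 arrays of wild type, MuRF1 null MuRF2 het and double null hearts, for 8 genes of the fetal and stressed heart; bars are means and SDs, and y ranges differ. For Nppa, Acta1 and Ccn2 the double null arrays lie above all MuRF1 null MuRF2 het arrays.

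The title of the series names E2F1, a transcription factor of the cell cycle, so its targets were examined as a list. E2f1 itself was above background on no array of either group and was not tested. Tfdp1, the partner that binds DNA with E2F1, was at -0.22, -0.54, -0.40 and -0.45 against -0.67, -0.98, -0.71 and -0.74 (0.38 ± 0.10, adjusted p = 0.0818). Its arrays did not overlap. A second probe gave 0.42 ± 0.10 and passed over all probes (adjusted p = 0.046), where the first did not (adjusted p = 0.0768). Tfdp1 also passed without MuRF1 null MuRF2 het 2 (adjusted p = 0.0311), a fit in which 1498 of 12331 genes passed. Over 16 settings other than leaving out 1 array Tfdp1 passed in 2, and its difference lay between -0.15 and 0.45. The cell cycle inhibitor gene Cdkn1a differed by -0.13 ± 0.15 (adjusted p = 0.62). Of 47 measured E2F targets and DNA replication genes none passed, and 39 lay above 0, against 6237 of 12331 genes tested. The list median was 0.21, with array medians of 0.41, 0.01, 0.22 and 0.09. All 16 measured mitosis genes lay above 0 (median 0.33), also without a call, with array medians of 0.95, -0.01, 0.33 and 0.23. With array brightness as a covariate both medians were below 0 (-0.04 and -0.12). With median centring, relative to its shift of all genes by -0.51, they were above 0 (0.06 and 0.16). The E2F site, written as TTTCCCGC, TTTGGCGC, TTTCGCGC or TTTGCCGC on either strand, was in 3.85% of the promoters of all tested genes, in none of 27 promoters of risen genes and in 1 of 60 of fallen genes.

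Other lists moved without a call. Of 76 cytosolic ribosomal protein genes 75 lay above 0, and 53 of these had an unadjusted p under 0.05. Of 12331 genes tested 6237 lay above 0, and 1483 of these had such a p. The ribosomal median was 0.56, but none of the 76 passed. Rps15a came nearest (0.57 ± 0.14, adjusted p = 0.0585). The array medians were 1.19, 0.18, 0.43 and 0.35 on MuRF1 null MuRF2 het 1 to 4 and -0.20 to 0.20 on the wild type arrays. The ribosomal median was -1.08 with median centring (-0.57 relative to all genes), 0.01 for the Cy5 channel alone and 0.03 with brightness as a covariate, so its direction depended on the scaling. Of 80 oxidative phosphorylation genes none passed; the median was 0.19, and -1.43 with median centring (-0.92 relative to all genes), -0.22 for the Cy5 channel alone and -0.25 with brightness as a covariate. In the sarcomere list Cryab rose and 31 of 32 genes did not pass, among them the M-line gene Myom1 (-0.90 ± 0.21, adjusted p = 0.0544) and titin, Ttn (-0.96 ± 0.34, adjusted p = 0.132).

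Markers of other cell types moved with array 1. Of the 14 measured adipocyte markers 13 lay above 0, against 6237 of 12331 genes tested, and none passed. Their array medians were 1.24, 0.03, 0.47 and 0.38, and those of the 15 skeletal muscle markers were 1.02, 0.15, 0.51 and 0.30. Both list medians were below 0 with brightness as a covariate (-0.05 and -0.06). With median centring, relative to its shift of all genes by -0.51, the adipocyte median was 0.17 and the skeletal muscle median -0.27. The mean ratio over the adipocyte list ranged from -1.83 to -0.88 in MuRF1 null MuRF2 het and from -2.04 to -1.78 in wild type hearts, and that over the skeletal muscle list from -1.87 to -1.13 and from -2.05 to -1.85. Plin1 was above background on no MuRF1 null MuRF2 het array. Of 5 measured erythroid markers, 16 fibroblast, 18 macrophage and 2 lymphocyte markers none passed. The part of other cell types in the results above was not tested.

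**Figure D5:**
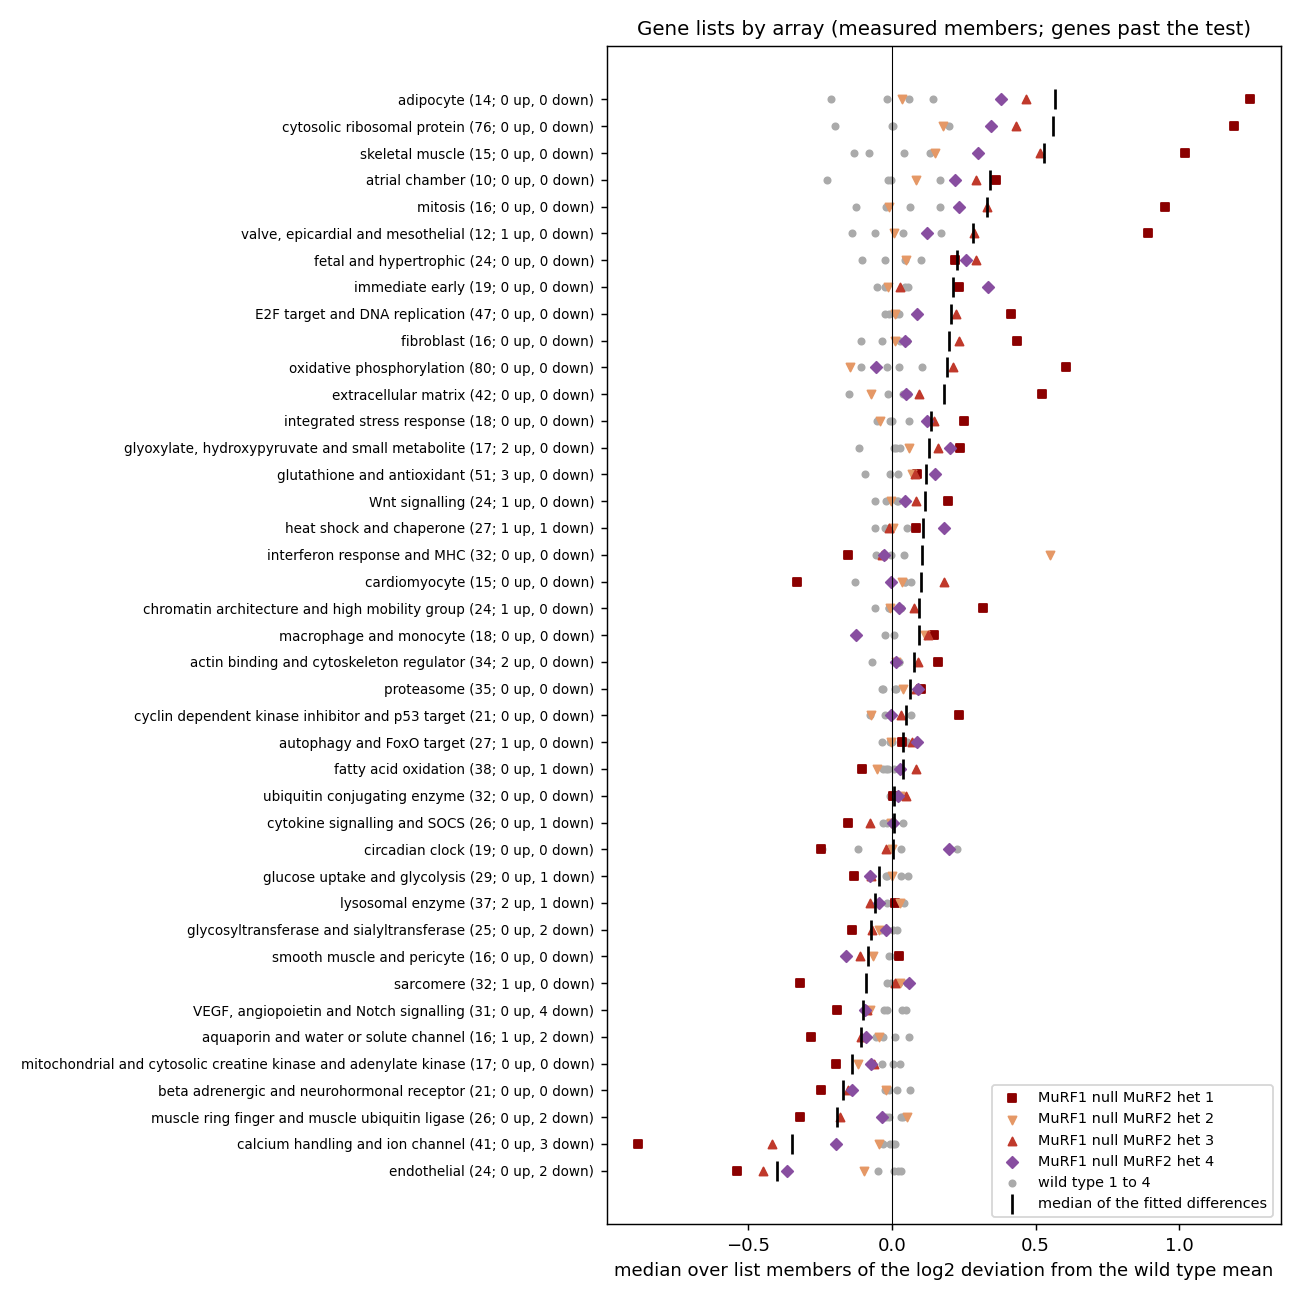
Gene lists with at least 10 measured members (y axis; number measured, and number that rose and fell) against the median log2 deviation of their members from the wild type mean (x axis) on each array; black ticks are medians of the fitted differences. MuRF1 null MuRF2 het 1 is the farthest from 0 in most lists, as for the adipocyte (1.24) and ribosomal (1.19) lists, and MuRF1 null MuRF2 het 2 lies near the grey wild type points.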

How the data were processed

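RNA of 16 hearts was hybridised to 2-colour Agilent arrays, per the labels Cy5 for heart and Cy3 for the pup reference, with no dye swap. The labelling protocol names Cy3 alone; the channel entries were followed. The deposited spot intensity and background values of each channel, and the log10 ratios, come from Feature Extraction 9.1.3.1 (9.5.3.1 for MuRF1 het MuRF2 null), per the file headers. The deposited series table holds log2 ratios, which the comparison with the array files showed to be centred per probe. Here intensities were background-corrected (normexp, offset 50), normalised within arrays (loess) and averaged per probe. Control spots and irregular spots had no weight.

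Probes with Cy5 well above background on at least 4 of 16 arrays were kept (16810), the brightest per gene was used (12331 genes), and limma 3.58.1 in R 4.3.3 was fitted over all 16 arrays with Benjamini-Hochberg adjustment. Of 41174 probes, 22951 were named by accession, 6659 by symbol and 3109 by synonym through RefSeq tables, and 8455 keep the file's name. The fit was tested on simulated data. The number of arrays limits the precision, and the labels call the replicates biological without naming litters.

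The members and the 44 gene lists were chosen with earlier results of these data known. Genes were named by rule: the MuRF genes, the 15 largest rises and falls with arrays apart, those called in every fit with 1 array left out, up to 5 called members of each list, and 11 genes of the stressed heart and E2F; 13 called clone names, accessions and predicted genes were skipped, and a few genes are not reported here. Alternatives changed the background correction, scaling, filter, probe choice, arrays, weights, brightness, slide and block.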

Additional observations from a re-analysis of the deposited data

Results flagged for a closer look

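Of 212 groups of 4 values examined, 16 held a value far from the other 3; chance gives about 1 in 20. In the MuRF1 null MuRF2 het group array 3 was low for Trim54 (2.41, the others 2.65 to 2.68), array 1 was low for Stard8 (-0.0891, the others 0.22 to 0.26) and Nrp1 (-0.16, the others 0.33 to 0.38), and array 2 was low for Acta1 (-3.08, the others -2.77 to -2.73). Wild type 3 was low for Hyi (-1.48), Gsta1 (-2.05) and Aqp8 (-1.61). Wild type 2 was high for Nipal3 (1.90) and wild type 1 for Inpp4b (1.89).

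Among list medians, given as deviations from the wild type mean, MuRF1 null MuRF2 het 1 stood apart for the sarcomere list (-0.32), for vascular growth factor and Notch signalling (-0.19) and for the 2 lymphocyte markers (0.39), and MuRF1 null MuRF2 het 4 for macrophage markers (-0.12). Wild type 4 stood apart for cardiomyocyte markers (-0.13), wild type 3 for small metabolite genes (-0.11) and wild type 2 for actin regulators (-0.0691).

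For 6 genes the fitted difference between double null and MuRF1 null MuRF2 het hearts itself passed: Nppa (2.41, with 1 double null array saturated), Ccn2 (2.18), Nppb (1.88) and Acta1 (1.59) were higher in double null hearts, and Cish (-0.97) and Atp2a2 (-0.73) lower.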

How the results depend on the processing

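The number of changed genes, 127 (39 rises and 88 falls), moved under most settings; Trim63 alone of the 49 named changed genes passed in every setting other than leaving out 1 array in which it was tested; it was not tested with probes well above background on all 8 arrays. Calls fell to 21 (7 and 14) with the scanner's own log ratio and with the deposited series table, to 68 (14 and 54) in the Cy5 channel alone, to 26 (13 and 13) with probes well above background on all 8 arrays, where 56 of the 127 were tested, to 16 (5 and 11) in a fit of only the 8 arrays, and to 4 (2 and 2) or 24 (10 and 14) with the wild type arrays of slide 1 or slide 3 alone. They rose to 2143 (1102 and 1041) with array weights and to 7374 (13 and 7361) with median centring. Falls numbered 57 with no filter and 48 with brightness as a covariate. Leaving out 1 array gave 23 to 1498 changed genes, 7 to 712 rises and 16 to 786 falls. With a replicate block 66 changed (25 and 41); deviations of same-numbered arrays correlated at 0.326, 0.259, 0.116 and -0.135, so the numbers are not taken to pair the samples. The causes were not tested.

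Those of the 127 that were tested kept their sign under each setting but median centring (102) and the Cy5 channel alone (126); 56 were tested with probes well above background on all 8 arrays and 126 with at least 4 of the 8. With median centring the named values that changed sign were Hmgn2 (-0.58), Ppt1 (-0.10), Cyb5a (-0.27), Pts (-0.0075), Twf2 (-0.63), Eif3h (-0.92), Myl12b (-0.87), Hebp1 (-0.29), Nipsnap3b (-0.018), Fuca1 (-0.36), Cfl2 (-0.37), Sqstm1 (-0.88), Cryab (-0.84) and Atp2a2 (-1.53). Taken relative to the median of all genes, which median centring moved by -0.51, 36 of 44 list medians changed sign in at least 1 setting. Signal over background also limits the falls: 33 of 88 were well above background on all 4 MuRF1 null MuRF2 het arrays.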

Other observations

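Genes of the interferon response and of antigen presentation were uneven within the MuRF1 null MuRF2 het group. None of the 32 measured members passed, but 31 of them were highest on MuRF1 null MuRF2 het 2 of the 8 arrays, a pattern chosen after its values were seen. H2-K1, a class I antigen-presenting molecule, was at 0.73, 1.68, 0.52 and 0.59 on MuRF1 null MuRF2 het arrays 1 to 4, with 0.26 to 0.78 in wild type, and Cd74, the class II invariant chain, at 0.33, 1.83, 0.94 and 1.17, with 0.82 to 1.15 in wild type. The list median, as a deviation from the wild type mean, was 0.55 on array 2 and -0.15, -0.03 and -0.03 on arrays 1, 3 and 4. No member on array 2 was more than 1 above the next highest array. MuRF1 null MuRF2 het 2 is also the array without which the number of changed genes rose to 1498.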
